A study of Homo sapiens with 6 samples.

Results

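The 9 genes described here belong to the p53 network: MDM2 and MDM4, which encode the main inhibitors of p53, and 7 genes that p53 is known to switch on during growth arrest, namely CDKN1A, GDF15, SESN1, ZMAT3, BTG2, PHLDA3 and RRM2B. They were chosen by name from the 60709 genes with counts, and all 9 reached 10 counts in each of the 3 libraries used, the condition for calling a gene detected below. The study measured messenger RNA in SH-SY5Y, an established human neuroblastoma line of sympathetic origin. Control wells received 10 uL of DMSO in 2 mL of medium at 80% confluence. Treated wells received a fumarate linked to an Nrf2 peptide in water (200 uL of a solution of 2 mg in 600 uL) with the same DMSO, and all cells were lysed after 5 h. The labels name no water addition to the control wells and do not say whether wells were independent cultures.

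The labels describe 3 control and 3 treated samples, but only the control numbers (4, 5 and 6) appear among the headings of the count table. The treated samples are not analysed here, and nothing is said of the treatment. The name control rests on this match of numbers. If the table had been numbered afresh, the same columns could hold treated cells.

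p53 is a transcription factor that is kept scarce in unstressed cells because MDM2, a ubiquitin ligase, marks it for degradation, while MDM4 binds it and blocks its activity. DNA damage and other stresses loosen this hold. p53 then raises genes that stop the cell cycle, slow growth signalling, supply nucleotides for repair, and produce MDM2 itself, which closes a feedback loop. SH-SY5Y is commonly used as a neuroblastoma line in which p53 is functional.

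Library totals ranged from 8887854 counts (control replicate 3) to 11397407 (replicate 2). Replicate 3 stood apart from the others: 6.25% of its counts came from mitochondrially encoded genes, against 4.11% in replicate 1 and 3.83% in replicate 2. Its difference from the mean of replicates 1 and 2 also fell with the GC content of the transcript, with a Spearman's rho of -0.727 across 10290 nuclear genes, which share the same 3 libraries and are not independent. Of 12 sympathetic neuroblastoma markers, 11 were detected, with a summed level of 4216 to 4606 CPM. CPM stands for counts per 1000000, with library totals scaled to each other. TH, the enzyme that begins catecholamine synthesis, had 0 counts in each library. The summed markers of blood, endothelium, epithelium and liver stayed at or under 2.43 CPM in every library, with HBB, CD3E, CDH5, KRT5 and CDH1 at 0. The 4 fibroblast markers summed to 55.8 to 57.6 CPM, but they differed among themselves. Most of the sum came from PDGFRA (mean 36.9 CPM) and COL1A1 (14.4 CPM). DCN had 5.21 CPM, and COL1A2 had only 1, 3 and 2 counts.

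The mRNA levels of MDM2 and MDM4, the inhibitors, were alike per kilobase of the longest transcript, while MDM2 was higher by CPM in every library. MDM2 (ENSG00000135679.25, GRCh38 chromosome 12, 68808176 to 68850686, plus strand) had 885, 936 and 813 counts, or 82.8, 81.9 and 91.8 CPM in replicates 1, 2 and 3, a mean of 85.5 ± 5.49 CPM (SD, n = 3). MDM4 (ENSG00000198625.13, chromosome 1, 204516379 to 204558120, plus strand) had 708, 758 and 599 counts, or 66.2, 66.3 and 67.6 CPM, a mean of 66.7 ± 0.796 CPM. MDM4 was the steadiest of the 9 genes between libraries, with a coefficient of variation of 1.19%, below its counting error of 3.63 to 4.09% per library. Both genes have long transcripts, and levels of different genes are therefore compared as CPM per kilobase of the longest transcript. On that scale MDM2 had 6.77 ± 0.434 and MDM4 6.62 ± 0.0790 CPM per kilobase (SD, n = 3). The ratio of MDM2 to MDM4 per kilobase was 0.997, 0.985 and 1.08 in replicates 1, 2 and 3, and their ranges overlapped. With the union of all exons as the length, the mean ratio was 1.06 and the ranges did not overlap.

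MDM2 can start from an upstream promoter and from a second one inside its first intron, where p53 is known to bind. The stretch before the second start is shown because it holds the only pair of matches to the p53 response element found among the 9 genes. It lies at chr12:68808908-68808995 on the plus strand of GRCh38, overlaps no annotated MDM2 exon, and ends before the RefSeq start at 68809017. Capitals mark the 2 matches, each a pair of adjoining half-sites.
MDM2 second promoter: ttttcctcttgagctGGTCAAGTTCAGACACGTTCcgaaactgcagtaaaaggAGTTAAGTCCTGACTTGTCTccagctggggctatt
The first match differs from the 20-base consensus at 2 positions and the second at 3. Gene counts pool transcripts from both starts, so the use of the second promoter was not measured.

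The same search covered RefSeq windows of 250 bases before to 50 after each start (GRCh38.p14). It asked for the p53 response element consensus, 2 half-sites of 10 bases with nothing between them and at most 3 mismatches. The consensus reads the same on both strands. A match was present in 1814 of 34796 distinct windows (5.21%) and in 1745 of 27305 genes (6.39%). Of the 9 genes, 7 had windows, and 3 of these held a match: MDM2, SESN1 and GDF15. The 7 genes had 13 windows, of which 4 held a match, and a gene with more windows has more room for a match. PHLDA3 and RRM2B had no entry in the table. The matches of SESN1, an intronic start, and of GDF15 are shown with a few flanking bases, the match in capitals.
SESN1 internal start (chr6:109009013-109009042, minus strand, no exon): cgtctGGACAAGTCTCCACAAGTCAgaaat
GDF15 start (chr19:18386178-18386207, plus strand, an annotated exon with UTR and coding bases): acctgcacAGCCATGCCCGGGCAAGAACtc
Each has 3 mismatches to the consensus. A match is a likeness of letters and was not tested for binding. The absence of one from the window of CDKN1A, BTG2, ZMAT3 or MDM4 says only that these letters are not there.

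Among the arrest genes, CDKN1A was by far the most abundant. It encodes p21, which binds and inhibits cyclin-dependent kinases and is the best-known mediator of p53-dependent arrest. CDKN1A (ENSG00000124762.14, chromosome 6, 36676460 to 36687339, plus strand) had 2820, 2825 and 2757 counts, or 264, 247 and 311 CPM, a mean of 274 ± 33.3 CPM (SD, n = 3). Its counting error was at most 1.90% per library, while the coefficient of variation between libraries was 12.1%, so the spread exceeded sampling. Replicate 3 was the highest and replicates 1 and 2 lay close together. Per kilobase its level was 121 ± 14.7 CPM, higher than 97.5% of the 13863 detected genes of known length.

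BTG2, an antiproliferative gene whose protein recruits the machinery that shortens mRNA tails, was steady. BTG2 (ENSG00000159388.6, chromosome 1, 203305491 to 203309602, plus strand) had 40.7, 42.7 and 44.6 CPM, a mean of 42.7 ± 1.96 CPM, from 435, 488 and 395 counts. Its coefficient of variation of 4.61% lay within the range of its counting error per library, 4.53 to 5.03%. ZMAT3 encodes a zinc finger RNA-binding protein that acts in splicing and mRNA stability downstream of p53. ZMAT3 (ENSG00000172667.11, chromosome 3, 179017223 to 179072279, minus strand) had 69.9, 71.8 and 96.1 CPM, a mean of 79.3 ± 14.6 CPM, from 747, 821 and 851 counts. Replicate 3 was set apart from the other libraries, which differed from each other by less than the counting error.

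SESN1 and PHLDA3 restrain growth signalling. SESN1 encodes a sestrin, a stress protein that dampens mTORC1 signalling. SESN1 (ENSG00000080546.13, chromosome 6, 108986437 to 109094819, minus strand) had 26.5, 26.0 and 32.6 CPM, a mean of 28.4 ± 3.71 CPM, from 283, 297 and 289 counts. PHLDA3 encodes a small pleckstrin-homology protein that competes with AKT for membrane lipids. PHLDA3 (ENSG00000174307.7, chromosome 1, 201464383 to 201469237, minus strand) had 37.8, 36.5 and 38.2 CPM, a mean of 37.5 ± 0.878 CPM, from 404, 417 and 338 counts. Its coefficient of variation, 2.34%, was below the counting error. Of its annotated exon bases, 19.1% are shared with AC096677.2 on the same strand, so its count depends on how shared reads were treated, which is not given in the sources used here. The same holds for 3.31% of the exon bases of MDM2, shared with the pseudogene AC025423.2 on its strand. Genes on the other strand cover 4.79% of the exon bases of CDKN1A (DINOL), 7.09% of those of SESN1 (AL390208.1) and 5.91% of those of MDM2 (AC025423.4), and whether counting used strand is not given either.

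GDF15 encodes a secreted stress hormone that lowers appetite through the receptor GFRAL with RET. GDF15 (ENSG00000130513.6, chromosome 19, 18374731 to 18389176, plus strand) was the least abundant by CPM, with 7.29, 7.18 and 9.37 CPM, a mean of 7.95 ± 1.24 CPM, from 78, 82 and 83 counts. Counting error alone was 11.0 to 11.3% per library, against a coefficient of variation of 15.5%. GFRAL was at 0 in all 3 libraries, where 3 counts, the upper limit, would be 0.263 to 0.339 CPM, while RET, which is also the receptor subunit for GDNF ligands, had 810 ± 81.2 CPM.

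RRM2B encodes the p53-inducible small subunit of ribonucleotide reductase, which makes DNA building blocks outside S phase. RRM2B (ENSG00000048392.12, chromosome 8, 102204502 to 102239118, minus strand) varied most between libraries, with 33.3, 39.7 and 52.4 CPM, a mean of 41.8 ± 9.72 CPM, from 356, 454 and 464 counts. Its coefficient of variation was 23.3%, against a counting error of 4.64 to 5.30%. No pair of its libraries agreed within that counting error.

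**Figure D1:**
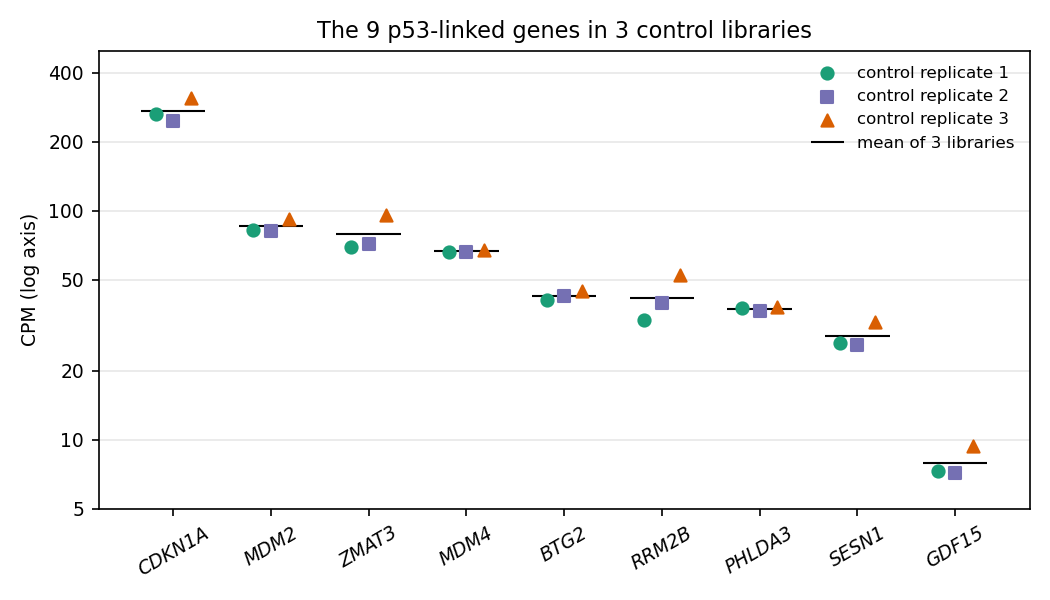
CPM of the 9 genes in each control library on a log axis, 1 point a library, with the mean of 3 libraries as a bar. The triangles of replicate 3 are the highest point of every gene, and the gap is widest for RRM2B (33.3 to 52.4 CPM) and narrowest for MDM4 (66.2 to 67.6 CPM).

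Ordered by level per kilobase, CDKN1A (121 CPM per kilobase) came first, 7.69 times above BTG2 (15.7 ± 0.724), which was followed by PHLDA3 (14.2 ± 0.332). These 3 neighbours did not overlap over the libraries. RRM2B (8.48 ± 1.97), ZMAT3 (8.43 ± 1.55) and SESN1 (8.08 ± 1.06) came next and overlapped each other. PHLDA3 stood above RRM2B, and SESN1 above MDM2, in every library without overlap. MDM2, MDM4 and GDF15 (6.62 ± 1.03) closed the order with overlapping ranges. With the union of all exons as the length, GDF15 was at 3.81 CPM per kilobase, and SESN1 (5.54) lay below MDM2 (6.44), so the place of these genes depends on the length chosen. The median over the 9 genes was 8.43 ± 1.55 CPM per kilobase, against 8.34 ± 0.0961 over the 13863 detected genes of known length.

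Replicate 3 gave the highest CPM for all 9 genes. Over the 13920 detected genes, 38.6% were highest in replicate 3. The highest library exceeded the lowest by at least 25% for 5 of the 9 genes (RRM2B, ZMAT3, GDF15, CDKN1A and SESN1), each time with replicate 3 on top. Over all genes 33.6% did so, and 15.0% did so with replicate 3 highest. Both shares depend on depth: they were 20.4% and 11.6% once a gene needed 100 counts per library to be included. At that depth 4 of the 5 genes remained, since GDF15 had fewer counts. A difference of at least 50% was reached by 1 gene, RRM2B, against a background of 9.74%. Without replicate 3, the difference reached 25% for none of the 9, against 12.6% of all genes. With 9 genes, none is not far from that share. Leaving out a library also narrows such a ratio for genes in general, so this count does not set the 9 genes apart. The largest ratio between replicates 1 and 2 was then 1.19, again for RRM2B. No test was made, since the libraries belong to 1 group.

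The GC content of the 9 transcripts runs from 36.4% (RRM2B) to 62.9% (GDF15), and replicate 3 read GC-rich transcripts lower than the other libraries. CDKN1A has 58.1% GC and GDF15 62.9%, and both were higher in replicate 3, by 0.29 and 0.37 on the log2 scale over the mean of replicates 1 and 2. Removing each library's GC trend raised these differences to 0.45 for CDKN1A and 0.58 for GDF15. The same step lowered the difference of RRM2B from 0.52 to 0.28, that of ZMAT3 from 0.44 to 0.29 and that of SESN1 from 0.32 to 0.25. MDM2 went from 0.16 to 0.04, and MDM4 from 0.03 to -0.07, so MDM4 was then lowest in replicate 3.

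With the trend removed, 8 of the 9 genes were still highest in replicate 3, against 38.1% of all genes. The count with a difference of at least 25% between libraries was 3 (CDKN1A, GDF15 and RRM2B), against 23.7% of all genes. Their ratios of highest to lowest library were 1.39, 1.52 and 1.26, so RRM2B no longer had the widest ratio. A difference of at least 50% was then reached by GDF15 in place of RRM2B, against 7.80% of all genes. CDKN1A then had 242 CPM in replicate 2, the lowest, and 336 CPM in replicate 3. GDF15 then had 6.79, 6.99 and 10.3 CPM. For both genes the gap lay between replicate 3 and a close pair of other libraries. The median difference of replicate 3 over the 9 genes was 0.29 on the log2 scale, and 0.25 with the trend removed, against -0.01 and 0.00 over all genes. Replicate 3 also had the largest mitochondrial share and the lowest total, and the part of either in these values was not tested.

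**Figure D2:**
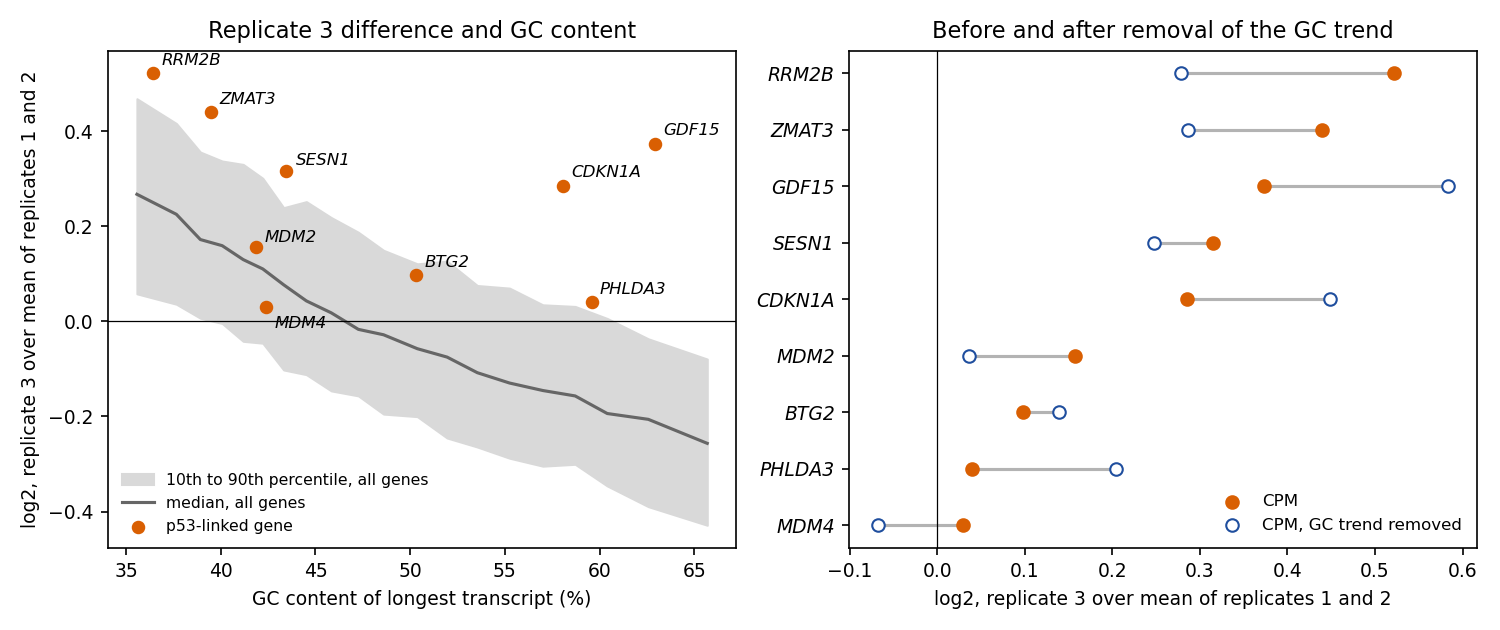
Left, the log2 difference of control replicate 3 from the mean of replicates 1 and 2 against the GC content of the longest transcript, with the median and the 10th to 90th percentile of 10290 nuclear genes in 20 GC bins as a line and a band. Of the 9 genes (points), 6 lie above the band, where 10.1% of the 10290 genes lie; GDF15, one of the 6, has too few counts to be among the 10290. Right, the same difference before (filled) and after (open) removal of the GC trend: CDKN1A, GDF15, PHLDA3 and BTG2 move up, the other 5 genes down.

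The relatives of these genes give their levels a scale. Of the CDK inhibitors of the p21 family, CDKN1A exceeded CDKN1B (p27, 26.6 to 29.6 CPM per kilobase) by 3.93, 3.84 and 5.15 times in replicates 1, 2 and 3. It exceeded CDKN1C (p57, 3.48 to 3.66 CPM per kilobase) by a mean of 33.9 ± 4.43 times. The libraries of these genes did not overlap.

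The ribonucleotide reductase subunits showed the reverse order. RRM2, the S-phase small subunit, had 74.8 ± 2.66 CPM per kilobase and the large subunit RRM1 63.5 ± 3.66. RRM2 exceeded RRM2B by 10.7, 9.59 and 7.07 times in replicates 1, 2 and 3. The ratio was lowest in replicate 3, where RRM2B was highest. With the GC trend removed it was 9.68 in replicate 1 and 7.88 in replicate 3.

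The 3 sestrins lay within a narrow span, SESN1 at 7.41 to 9.30, SESN2 at 8.01 to 9.04 and SESN3 at 8.43 to 10.3 CPM per kilobase, and every pair overlapped. With the union of all exons as the length, SESN1 was at 5.54 CPM per kilobase, below SESN2 (8.62) and SESN3 (8.32) without overlap. In the BTG and TOB family, BTG2 was lower than BTG3 (31.6 ± 0.985) and higher than BTG1 (9.77 ± 0.589) and TOB2 (7.84 ± 0.508), without overlap. TOB1 (18.3 ± 2.39) overlapped BTG2. BTG4, a gene of the oocyte and early embryo, had 0 counts in each library.

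PHLDA3 was the highest of its family, above PHLDA1 (7.54 ± 0.852 CPM per kilobase) and PHLDA2, for which only 6, 5 and 9 counts were recorded. ZMAT3 was lower than ZMAT2 (64.2 ± 1.45), a splicing factor, by a mean factor of 7.80 ± 1.45. It was higher than ZMAT5 (4.85 ± 0.699) and ZMAT1 (2.89 ± 0.300). ZMAT4 had at most 1 count in any library. Whether reads shared between relatives were split or dropped is not given in the sources used here.

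**Figure D3:**
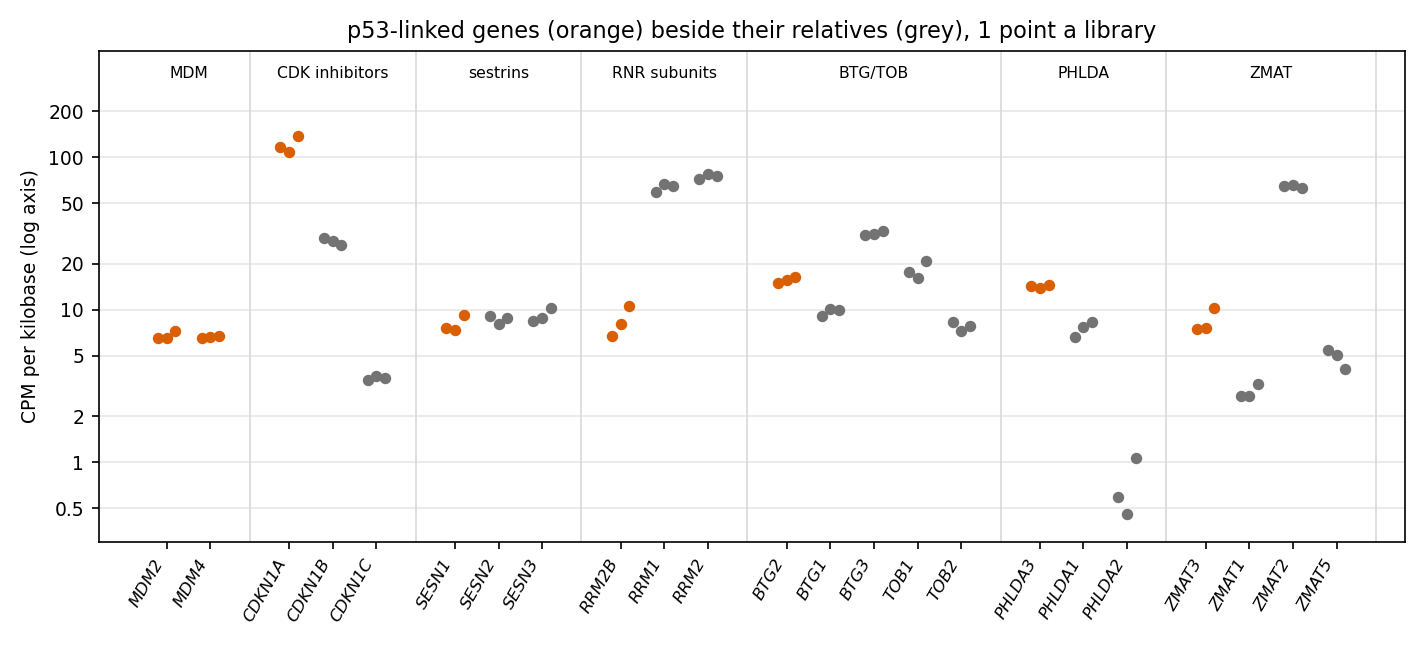
CPM per kilobase of the longest transcript on a log axis for 7 gene families, 1 point for each control library from replicate 1 (left) to 3 (right). CDKN1A and PHLDA3 (orange) lie above their relatives (grey), RRM2B lies below RRM1 and RRM2, and ZMAT3 below ZMAT2.

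The wider network was read from 5 gene lists drawn up by function. Of 24 regulators of p53, all 24 were detected, with a median of 21.5 ± 0.947 CPM per kilobase. The highest was RPL5 (704 ± 21.9), a ribosomal protein that can bind MDM2, and the lowest was RCHY1 (3.48 ± 0.749), a ubiquitin ligase for p53. In 2 of the 24 (8.33%) the libraries differed by at least 25%, against 33.6% of all genes, and 7 were highest in replicate 3, against 38.6%. The share of 33.6%, used for each list, includes genes with few counts. It was 20.4% once a gene needed 100 counts per library, a depth that every regulator except CDKN2A reached. That lower share is the closer background for the regulators. RCHY1 had 13.0 CPM in replicate 1 and 15.9 CPM in replicate 2 and was highest in replicate 3, a ratio of 1.54 over the lowest that became 1.24 with the GC trend removed.

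Of 25 other p53 targets in arrest, repair and metabolism, 24 were detected, with a median over all 25 of 9.87 ± 0.681 CPM per kilobase. They spanned PLXNB2 (42.4 ± 3.34), a semaphorin receptor, to TIGAR (1.47 ± 0.366), which lowers fructose-2,6-bisphosphate. TIGAR rested on 41, 73 and 51 counts and was highest in replicate 2. In 7 of the 24 (29.2%) the libraries differed by at least 25%, which lay between 33.6% of all genes and 20.4% with the minimum of 100 counts. In 6 of the 24 they did so with replicate 3 highest, against 15.0% of all genes and 11.6% with that minimum. Whatever the size of the difference, 14 of the 24 were highest in replicate 3, against 38.6% of all genes. These 6 genes, PLK2, EDA2R, CMBL, CCNG1, KITLG and TP53INP1, are named after their values were seen. PLK2, a p53-induced polo-like kinase, had 39.5, 37.1 and 52.5 CPM, and EDA2R, a receptor of the TNF family, had 18.9, 16.6 and 24.6 CPM. Their ratios, 1.42 and 1.48, were 1.43 and 1.45 with the GC trend removed, and that of CMBL went from 1.34 to 1.35. The ratio of CCNG1, which encodes cyclin G1, went from 1.42 to 1.20, that of KITLG from 1.40 to 1.21 and that of TP53INP1 from 1.36 to 1.26. With the trend removed, the libraries of 6 of the 24 differed by at least 25%, against 23.7% of all genes, and these are not all the same genes, since CCNG1 and KITLG no longer did so.

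Of 14 p53 targets in cell death, 11 were detected. BAX (73.9 ± 2.37 CPM per kilobase), which permeabilises mitochondria, was the highest, and FAS (1.30 ± 0.362), a death receptor, the lowest of these 11. FAS rested on 31, 31 and 39 counts. PERP, a desmosomal protein, had 0 counts in each library. In 2 of the 11 (18.2%) the libraries differed by at least 25%, against 33.6% of all genes, and 6 of the 11 were highest in replicate 3, against 38.6% of all genes.

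Around p21, 20 of 22 cyclins, kinases and inhibitors were detected, with a median over all 22 of 23.2 ± 0.0401 CPM per kilobase. CCND1 (cyclin D1, 216 ± 8.07) was the highest, CDKN1C the lowest of the 20, and CCND2 (cyclin D2) had 0 counts in each library. CDKN1A lay below CCND1, at 121 CPM per kilobase. RB1, the pocket protein that these kinases phosphorylate, had 62.7, 74.6 and 94.9 CPM, a ratio of 1.51 that became 1.22 with the GC trend removed. In 5 of the 20 the libraries differed by at least 25%, against 33.6% of all genes, and in 1 of the 20 with the trend removed, against 23.7%. Of the 19 paralogs and partners named above, 15 were detected, with a median over all 19 of 8.41 ± 0.395 CPM per kilobase, RET (143 ± 14.3) the highest and ZMAT1 the lowest. In 3 of these 15 the libraries differed by at least 25%, against 33.6% of all genes, and 5 were highest in replicate 3, against 38.6%.

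**Figure D4:**
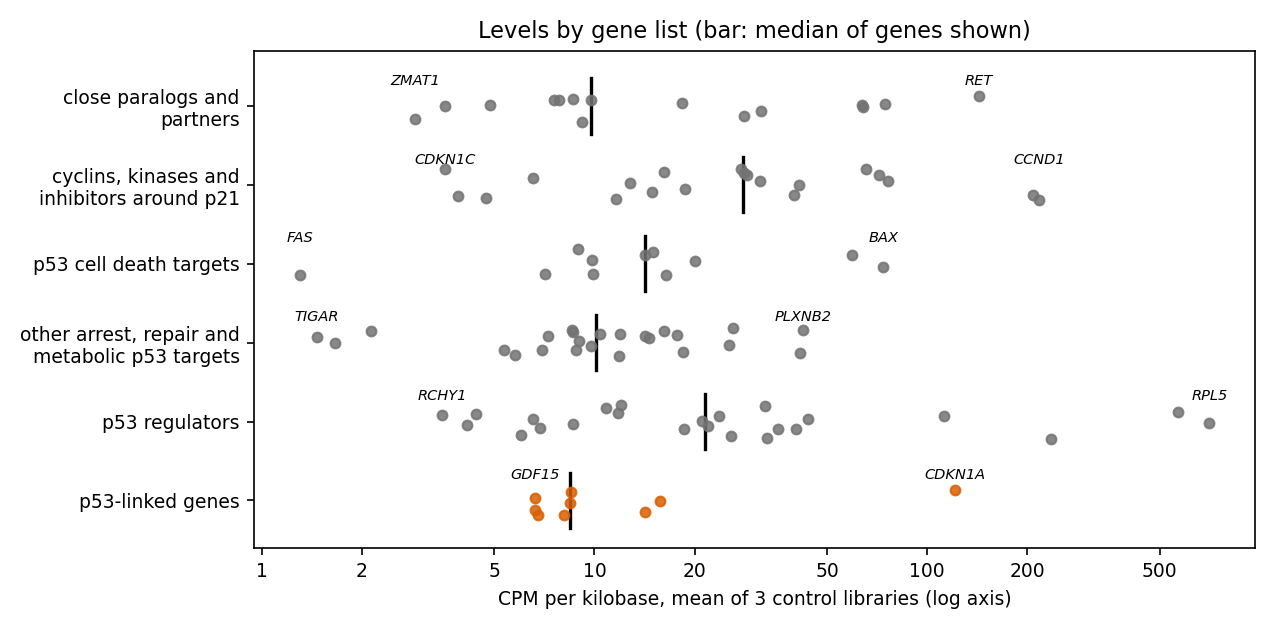
Mean CPM per kilobase over 3 control libraries on a log axis for each detected gene, by list, with the median of the genes shown as a bar and the highest and lowest gene named. CDKN1A lies apart from the other p53-linked genes (orange), which span 6.62 to 15.7 CPM per kilobase.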

How the data were processed

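Per the labels' protocols, libraries were made from total RNA of SH-SY5Y cells with a stranded mRNA kit. Each value the authors deposited is a raw count for 1 Ensembl gene in 1 library, a whole number with no normalization. The submitters' processing notes list GRCh38, fastp 0.21.1, STAR 2.7.7a and featureCounts. The annotation release, the strand setting and the treatment of shared reads are not given in the sources used here. Columns were matched to samples by the number in their heading, which matched the 3 control samples; 3 further columns matched no label and were not used. Of 60710 genes, 1 has no value in the columns used.

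Counts were scaled with TMM factors (edgeR 4.0.16, R 4.3.3), and tables were made with Python 3.11.15, numpy 2.4.6 and pandas 2.3.3. A count of 0 allows up to 3 counts, 0.263 to 0.339 CPM, for counting error only. Counting error is the Poisson error of the count. Positions, lengths and GC content came from GENCODE release 29 (GRCh38), whose gene versions differ from those of the table for most of the 9 genes, and 99.6% of the 13920 detected genes (10 or more counts in each control library) had a length and GC value. The GC trend of a library was its median log2 deviation in 50 bins of GC, over detected nuclear genes whose mean count reached 100. The ratio call and the removal of the GC trend were tested on simulated counts with known changes and a known GC trend in a single library. The TMM scaling, the levels per kilobase and the search for response elements were not part of that test. Promoter sequences came from RefSeq (GRCh38.p14).

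The 9 genes and the 5 lists were chosen with earlier results of these data known. The text names the 9 genes and, of each list, the highest and lowest detected gene, genes at 0 in every library, genes with a difference of at least 50% between libraries, and the paralogs. Other genes of a list were named after their values were seen, which the text says beside them. The planned edgeR test of treated against control libraries was not run, since columns of 1 group only could be matched.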

Additional observations from a re-analysis of the deposited data

How the results depend on the processing

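No paired analysis was possible because the treated samples, which share the control replicate numbers, had no matching columns; the planned comparison with treated libraries, its DESeq2 fit and its replicate block were not run. The number of the 9 genes with libraries at least 25% apart, 5, was 3 with the GC trend removed, 1 at a difference of at least 50%, and 0 to 5 when 1 library was left out, 0 without replicate 3 and 3 without replicate 2. The share of all genes, 33.6%, was 51.6% at a minimum of 1 count, 20.4% at 100 counts, 9.74% at a difference of at least 50%, and 12.6 to 25.2% when 1 library was left out. The number highest in replicate 3 was 9 or 8 under the 6 settings added after the data were seen. The share of all genes highest in replicate 3 was 37.2 to 40.9% under the settings that kept all 3 libraries. It was 49.1% without replicate 1 and 48.0% without replicate 2. Leaving out mitochondrial genes, which raises every other gene by its construction, moved the list medians to 22.5 (regulators), 10.7 (cell death), 24.4 (around p21) and 8.83 CPM per kilobase (paralogs). Keeping detected members only, which drops the lowest, gave 14.1 (cell death), 27.6 (around p21) and 9.87 (paralogs). The p21 list also moved to 23.1 with the GC trend removed and ranged from 23.2 to 23.3 when 1 library was left out, against an SD of only 0.0401. The cause of that move was not tested. Of 80 values of the 9 genes, the lists and all genes taken as sets, 18 moved. Of 126 values of single genes under these settings, 13 moved. A single gene's mean moved if it changed by at least 1 SD, and its ratio of highest to lowest library if it crossed the 25% mark. A ratio could thus change without being called moved. Without replicate 3, 5 ratios moved. Leaving out 1 of 3 libraries can hardly move a mean by 1 SD and says nothing about stability. Depth limits GDF15 most, with 78 to 83 counts per library.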
